A study of Homo sapiens with 6 samples.

Results

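The SOX genes encode transcription factors that bind DNA through an HMG box, and 9 of them are described here: SOX2, SOX4, SOX5, SOX6, SOX8, SOX9, SOX11, SOX13 and SOX15. They were chosen as the SOX family apart from SOX10, and they are 9 of the 60617 genes listed for each library. RNA was measured by sequencing in 6 libraries. A pair came from PBRT15 cells and a pair from PBRT16 cells, which are paradox breaker resistant tumor lines, each established from an in vivo tumor and both kept in 500 nM PLX8394, an inhibitor of mutant BRAF. The third pair came from drug-sensitive 1205LuTR parental cells in DMSO. The labels name all 3 lines as 1205LuTR, the GAL4-ELK1 reporter version of the human melanoma cell line 1205Lu, and all were grown in MCDB153 with serum, L-15 medium and insulin. Each resistant line is a single line, and each was in drug while the parental cells were not, so line and drug cannot be told apart. The sources used here do not say whether the libraries of a line were separate cultures, so p-values measure the spread between these libraries, which may be technical.

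SOX proteins bend DNA at short sites and usually act with partner factors. They fall into subgroups by the sequence of the HMG box. SoxB1 (SOX2) is known for the upkeep of stem and neural progenitor cells. SoxC (SOX4, SOX11 and SOX12) acts in developing neurons and mesenchyme, SoxD (SOX5, SOX6 and SOX13) lacks an activation domain of its own, and SoxE (SOX8, SOX9 and SOX10) drives neural crest, cartilage and glia. In the melanocyte lineage SOX10 is the resident SoxE factor, SOX9 is a paralog also expressed in melanoma, and SOX5 can oppose SOX10 at shared targets in the mouse.

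The likeness of the members is shown by the first 20 codons of the HMG box, since reads of near-identical genes could be counted for one another. These are 60 coding bases each, within 1 exon of the GENCODE v44 transcript on GRCh38, written 5′ to 3′ along the gene. Capitals mark bases unlike SOX9, and members are listed from SoxE to SoxB1.

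SOX9, chr17:72121704-72121763, plus strand: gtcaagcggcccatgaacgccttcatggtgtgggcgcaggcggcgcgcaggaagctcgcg

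SOX8, chr16:982226-982285, plus strand: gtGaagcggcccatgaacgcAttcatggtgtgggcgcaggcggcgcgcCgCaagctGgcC

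SOX5, chr12:23543257-23543316, minus strand: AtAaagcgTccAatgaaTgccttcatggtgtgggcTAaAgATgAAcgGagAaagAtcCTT

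SOX6, chr11:15989043-15989102, minus strand: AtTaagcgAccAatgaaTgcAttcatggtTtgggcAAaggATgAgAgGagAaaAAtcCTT

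SOX13, chr1:204123699-204123758, plus strand: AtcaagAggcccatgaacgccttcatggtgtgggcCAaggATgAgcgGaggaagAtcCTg

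SOX4, chr6:21594709-21594768, plus strand: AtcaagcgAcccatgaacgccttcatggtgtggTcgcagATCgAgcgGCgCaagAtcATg

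SOX2, chr3:181712481-181712540, plus strand: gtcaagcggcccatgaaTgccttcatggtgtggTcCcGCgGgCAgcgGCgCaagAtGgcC

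Over the whole box of 237 coding bases, SOX8 matched SOX9 at 89.0% of bases, SOX10, which is not a member, at 89.5%, SOX2 at 71.7%, SOX4 at 71.3%, SOX5 at 60.3% and SOX6 at 55.3%. Within SoxD the box of SOX5 matched that of SOX13 at 83.5% and that of SOX6 at 81.0%. The longest run of identical bases between any transcripts was 45 bases for SOX9 and SOX10 and 37 bases for SOX8 and SOX9, both shorter than a sequenced read.

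The values are normalized expression values per gene, on a common scale across libraries, that sum to between 27877963 and 29580752 per library. The most frequent low value of a library lay between 0.907 and 1.07, but values could not be turned back into reads. Differences are log2 fold changes of value + 1, with standard errors and adjusted p-values from limma fitted to 16555 genes in all 6 libraries. A gene rose or fell where its Benjamini-Hochberg adjusted p was at most 0.05. Of the 9 members, 8 passed the filter on low values. SOX8 passed it through the parental libraries alone and SOX15 through the PBRT15 libraries alone, so a difference of either gene was built into its selection, and both are left out of the counts of members. SOX11, a SoxC factor of developing neurons, was listed at 0 in all 6 libraries and was not tested.

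Of the 6 other tested members, 3 fell (SOX2, SOX5 and SOX9) and 1 rose (SOX4) in PBRT15 cells, beside 19.5% and 21.6% of the whole set of tested genes in these directions. The same 3 fell and SOX4 rose in PBRT16 cells, beside 19% and 21.1% of the whole set. SOX6 and SOX13 passed the test in neither line. With a fold of at least 2 asked for as well, these members kept the same calls, beside 9.85% of the whole set falling and 13.8% rising in PBRT15 and 9.95% and 13.1% in PBRT16. These comparisons share the parental libraries.

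**Figure D1:**
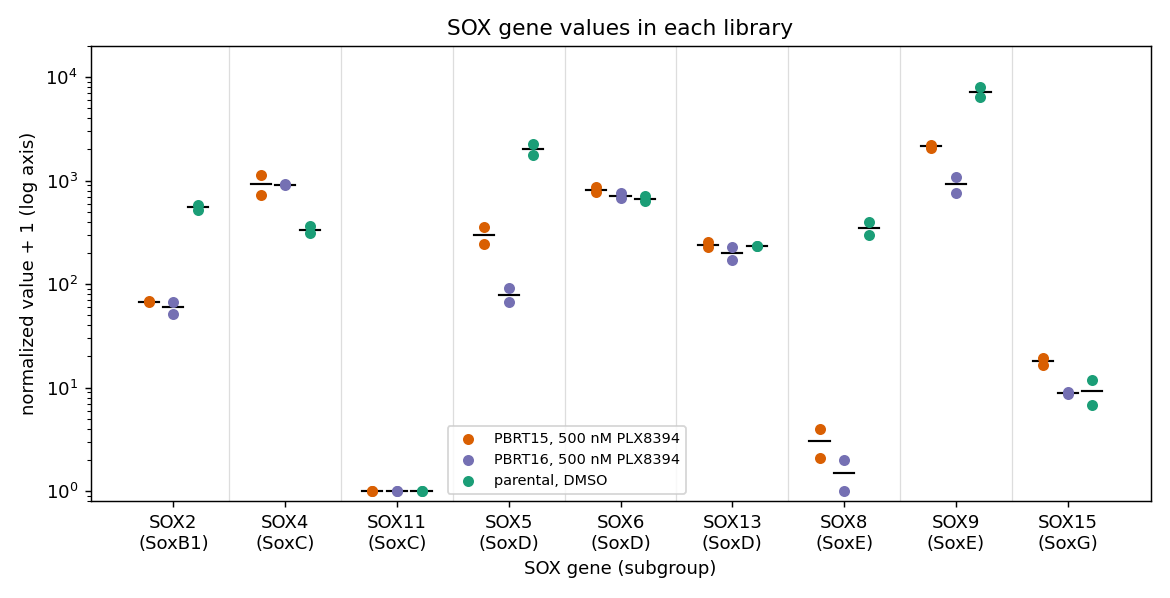
Normalized value + 1 on a log axis for the 9 SOX genes in each library, with PBRT15 left of PBRT16 and parental cells at the right of each gene. Points are libraries and black bars are means of 2. SOX9 lay between 764 and 2199 in the 4 resistant libraries, against 6364 and 8030.0 in parental libraries, and SOX11 is listed at 0 in all of them.

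Of the SoxE genes, SOX9 (ENSG00000125398, chr17:72121020-72126416, plus strand) specifies chondrocytes and takes part in neural crest development. Its values were 2199 and 2072 in PBRT15 cells and 764 and 1094 in PBRT16 cells, against 8030.0 and 6364 in parental cells. All 4 resistant libraries lay under both parental libraries, and both PBRT16 libraries lay under both PBRT15 libraries. SOX9 fell by 1.74 on the log2 scale in PBRT15 (SE 0.22, limma adjusted p = 0.0046) and by 2.97 in PBRT16 (SE 0.22, limma adjusted p = 0.00106). Even so, SOX9 kept a mean of 2136 ± 89.7 in PBRT15 and 929 ± 233 in PBRT16, against 7197 ± 1178 in parental cells (SD, n = 2 each).

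SOX8 (ENSG00000005513, chr16:981770-986979, plus strand), the SoxE paralog with the box most like that of SOX9 among the members, was close to absent from the resistant lines. Its values were 1.09 and 2.97 in PBRT15 cells and 0 and 1.01 in PBRT16 cells, against 396 and 298 in parental cells. The resistant libraries thus listed SOX8 at 2.97 or less, and no value overlapped with the parental ones. As a description only, the fitted difference on the log2 scale was -6.90 for PBRT15 and -7.93 for PBRT16 (SE 0.47 each). At such low values the size of the fold depends on the pseudocount, and over the alternatives it ran from -7.37 to -5.65 in PBRT15 and from -8.63 to -5.99 in PBRT16. For the third SoxE gene, SOX10, the values were 0 and 0.791 in PBRT15 cells and 1.49 and 0.778 in PBRT16 cells, against 4360.5 and 4103 in parental cells.

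Of the SoxD genes, only SOX5 passed the test. SOX5 (ENSG00000134532, chr12:23529504-24562544, minus strand) works with SOX6 beside SOX9 in cartilage. Its values were 244 and 354 in PBRT15 cells and 66.4 and 89.8 in PBRT16 cells, against 2262 and 1766 in parental cells. The 3 groups did not overlap, with PBRT16 lowest and parental cells highest. SOX5 fell by 2.76 in PBRT15 (SE 0.27, limma adjusted p = 0.00209) and by 4.68 in PBRT16 (SE 0.27, limma adjusted p = 0.000501) on the log2 scale.

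SOX6 (ENSG00000110693, chr11:15966449-16739591, minus strand), its close paralog, had values of 768 and 860.1 in PBRT15 cells and 676 and 749.7 in PBRT16 cells, against 706 and 629 in parental cells. The PBRT15 libraries lay above the parental ones, and the PBRT16 libraries overlapped with them. Its log2 fold change was 0.29 in PBRT15 (95% interval -0.07 to 0.64, limma adjusted p = 0.156) and 0.10 in PBRT16 (-0.26 to 0.45, limma adjusted p = 0.608). SOX13 (ENSG00000143842, chr1:204073115-204127743, plus strand), a SoxD factor of T cell development in the mouse, had values of 227 and 253 in PBRT15 cells and 229 and 170.2 in PBRT16 cells, against 235 and 232 in parental cells. The PBRT15 libraries of SOX13 spanned the parental ones, and of the PBRT16 libraries one lay close to the parental values and the other under all the rest. Its log2 fold change was 0.04 in PBRT15 (-0.43 to 0.50, limma adjusted p = 0.889) and -0.24 in PBRT16 (-0.70 to 0.22, limma adjusted p = 0.323). For SOX13 the direction in PBRT15 was not settled, since it turned to -0.05 with upper-quartile scaling and to -0.04 without PBRT15 replicate 2.

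SOX2 (ENSG00000181449, chr3:181711925-181714436, plus strand), the SoxB1 factor of pluripotent and neural progenitor cells, had values of 66.9 and 65.8 in PBRT15 cells and 66.6 and 50.6 in PBRT16 cells, against 585 and 521 in parental cells. The 2 resistant lines overlapped and all 4 libraries lay far under the parental ones. SOX2 fell by 3.04 in PBRT15 (SE 0.17, limma adjusted p = 0.000485) and by 3.23 in PBRT16 (SE 0.17, limma adjusted p = 0.000421) on the log2 scale. Both calls held under every alternative tried.

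SOX4 (ENSG00000124766, chr6:21593751-21598619, plus strand), the SoxC factor linked to progenitor survival and mesenchymal programs, was higher in the resistant lines. Its values were 728 and 1131 in PBRT15 cells and 898 and 919.7 in PBRT16 cells, against 362 and 309 in parental cells. All 4 resistant libraries lay above both parental libraries, while the 2 resistant lines overlapped. SOX4 rose by 1.44 in each line (SE 0.24, limma adjusted p = 0.00991 in PBRT15 and 0.00992 in PBRT16). Without parental replicate 2 its log2 fold change was 1.32 in each line, with a limma adjusted p of 0.058 in PBRT15 and 0.0576 in PBRT16, and without PBRT16 replicate 2 it was 1.42 in PBRT16 with 0.0543.

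SOX15 (ENSG00000129194, chr17:7588178-7590094, minus strand), the SoxG gene, known for roles in muscle progenitors of the mouse, was low in every library. Its values were 18.5 and 15.5 in PBRT15 cells and 7.71 and 8.07 in PBRT16 cells, against 10.7 and 5.86 in parental cells. PBRT15 lay above the other groups, and PBRT16 lay within the parental range. As SOX15 passed the filter through PBRT15 alone, its log2 fold change of 1.00 in that line (SE 0.28, limma adjusted p = 0.043) is a description, and 9 of 16 alternatives lost that call. Its limma adjusted p was 0.0772 at a log2 fold change of 0.61 without parental replicate 2, 0.153 at 0.88 without PBRT15 replicate 1, 0.105 at 1.12 without PBRT15 replicate 2 and 0.0803 at 1.00 without PBRT16 replicate 1 or without PBRT16 replicate 2. In PBRT16 the log2 fold change of SOX15 was -0.01 (95% interval -0.74 to 0.71, limma adjusted p = 0.973), and it turned to 0.37 without parental replicate 1 and to 0.01 without PBRT16 replicate 1.

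**Figure D2:**
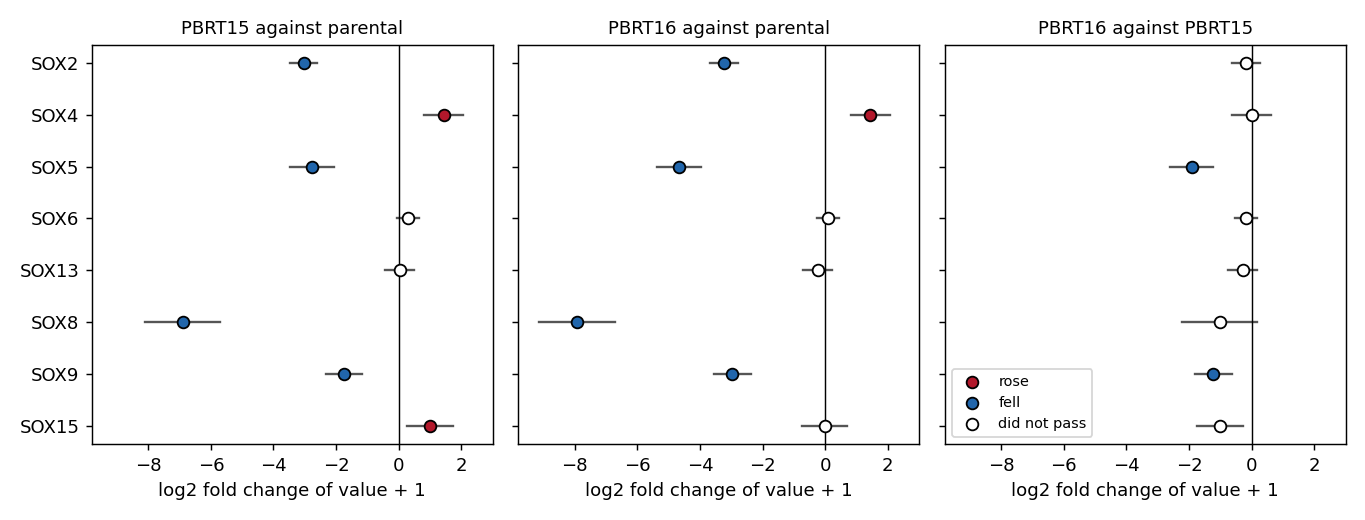
Log2 fold change of value + 1 (x axis) with its 95% interval from limma for the 8 tested SOX genes, in PBRT15 against parental, PBRT16 against parental and PBRT16 against PBRT15. Filled points passed an adjusted p of 0.05. SOX2, SOX5 and SOX9 fell and SOX4 rose in both resistant lines, SOX5 and SOX9 were lower in PBRT16 than in PBRT15, and SOX8 and SOX15 passed the filter through 1 group each.

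Between the resistant lines, both in drug, 2 of the 6 members counted fell in PBRT16 relative to PBRT15 and 0 rose by limma (0 at an unadjusted p of 0.05 too), beside 8.28% and 7.5% of the whole set of tested genes. Both kept a fold of at least 2, beside 4.77% falling and 4.49% rising in the whole set. SOX5 was lower in PBRT16 by a log2 fold change of -1.91 (SE 0.27, limma adjusted p = 0.0164) and SOX9 by -1.22 (SE 0.22, limma adjusted p = 0.0303). The values of neither gene overlapped between the 2 lines. Over 17 alternatives the SOX9 call held in 9 and the SOX5 call in 14. SOX9 lost its call in some fits that kept all libraries too. The SOX9 call was lost in each fit that left out a library, except the one without PBRT16 replicate 2. Without PBRT16 replicate 1 the log2 fold change of SOX9 was -0.96 (limma adjusted p = 0.0972), without PBRT15 replicate 1 it was -1.18 (0.123), without PBRT15 replicate 2 it was -1.27 (0.101), and without parental replicate 1 or without parental replicate 2 it was -1.22 (0.0605). The SOX5 call was lost without PBRT15 replicate 2 (-1.65, limma adjusted p = 0.0614), without PBRT16 replicate 1 (-1.70, 0.0786) and without PBRT16 replicate 2 (-2.13, 0.0539). For the other members the interval of the PBRT16 minus PBRT15 difference was -0.63 to 0.25 for SOX2, -0.62 to 0.62 for SOX4, -0.55 to 0.16 for SOX6, -2.23 to 0.19 for SOX8, -0.74 to 0.18 for SOX13 and -1.74 to -0.29 for SOX15, whose limma adjusted p was 0.0749.

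Levels of different genes were compared per kilobase of exon, counting all annotated exons of a gene. In parental cells the order of some members changed with the longest transcript as length. In PBRT15 cells the members ran from SOX9 (mean value per kilobase 543) over SOX4 (191), SOX6 (40.5), SOX13 (32.3), SOX5 (26.5), SOX2 (26.4) and SOX15 (11.6) down to SOX8 (0.454). The libraries of SOX13 and SOX5, and of SOX5 and SOX2, overlapped in this order. In PBRT16 cells the order was SOX9 (236), SOX4 (187), SOX6 (35.5), SOX13 (26.9), SOX2 (23.3), SOX5 (6.92), SOX15 (5.39) and SOX8 (0.113), with SOX13 and SOX2 overlapping. In parental cells it was SOX9 (1831), SOX2 (220.1), SOX5 (178), SOX8 (77.6), SOX4 (69.0), SOX6 (33.2), SOX13 (31.5) and SOX15 (5.67), with SOX8 and SOX4, and SOX6 and SOX13, overlapping. Among the members SOX9 thus stood first in every group, while SOX4 came next in both resistant lines and lay behind SOX2, SOX5 and SOX8 in parental cells. SOX12, which is not a member, had means of 194 in PBRT15 and 206 in PBRT16, against 95.8 in parental cells. It lay above SOX9 in PBRT16 replicate 1 (199.0 against 194.4) and under it in PBRT16 replicate 2 (212.9 against 278.3).

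The summed SOX value per kilobase, over the 9 members and 10 further SOX genes, was 1081 in PBRT15 and 735 in PBRT16, against 3428 in parental cells. SOX9 made up 50.4% ± 4.9 of that sum in PBRT15 and 31.9% ± 5.2 in PBRT16, against 53.3% ± 2.2 in parental cells (SD, n = 2 each). SOX4 made up 17.5% ± 4.5 in PBRT15 and 25.5% ± 1.8 in PBRT16, against 2.01% ± 0.022 in parental cells (SD, n = 2 each). SOX12, the other expressed SoxC gene, made up 18.0% in PBRT15 and 28.1% in PBRT16, against 2.81% in parental cells, and SOX10 made up 0.0073% and 0.033%, against 25.7%. The shares were not tested. Of the 10 further SOX genes 4 were tested, and only SOX12 did not owe its test to a single group. SOX12 rose in PBRT15 (log2 fold change 1.02, limma adjusted p = 0.00358) and in PBRT16 (1.10, 0.0029). SOX18, a factor of vessel development, passed the filter through PBRT15 alone (21.3 and 24.8 in PBRT15 cells and 15.3 and 9.37 in PBRT16 cells, against 6.49 and 5.09 in parental cells), and SOX7 and SOX10 through the parental libraries alone. SOX7 had values of 2.03 and 1.91 in PBRT15 cells and 2.71 and 6.57 in PBRT16 cells, against 17.2 and 19.3 in parental cells.

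**Figure D3:**
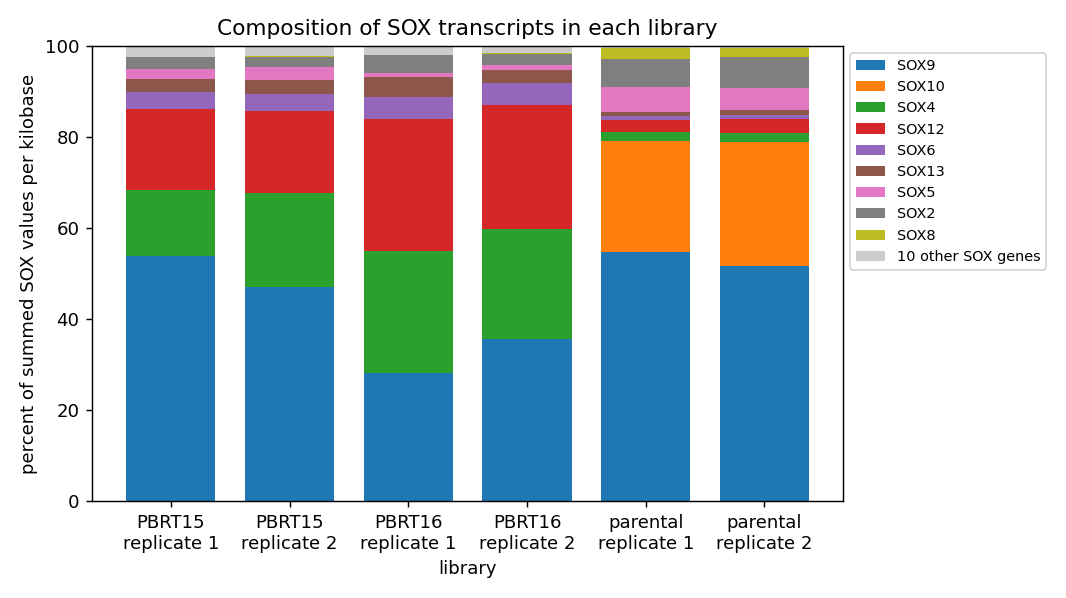
Percent of the summed SOX values per kilobase of exon (y axis) taken by each SOX gene in the 6 libraries, drawn as stacked bars with PBRT15 at the left and parental cells at the right. SOX9 took 31.9% of the sum in PBRT16 on average, against 53.3% in parental cells, and SOX4 and SOX12 together filled much of the bars of the resistant lines and little of the parental ones.

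The sequence upstream of the start was available from RefSeq (GRCh38.p14) for 5 members: SOX2, SOX4, SOX5, SOX6 and SOX13. The 250 bases before the start are shown for the members that moved, 5′ to 3′ along the gene, with motif matches in capitals. The motifs searched on both strands were AACAAT (SOX), ACAAAG (SOX and TCF), which share the letters ACAA, and TGANTCA (AP-1-like, with N any base).

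SOX2, chr3:181711675-181711924, plus strand: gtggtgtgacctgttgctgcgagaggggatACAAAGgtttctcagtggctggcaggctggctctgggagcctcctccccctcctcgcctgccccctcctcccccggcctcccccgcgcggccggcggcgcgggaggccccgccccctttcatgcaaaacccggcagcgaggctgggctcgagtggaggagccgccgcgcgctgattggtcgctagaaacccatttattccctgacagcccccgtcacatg

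SOX5, chr12:24562492-24562741, minus strand: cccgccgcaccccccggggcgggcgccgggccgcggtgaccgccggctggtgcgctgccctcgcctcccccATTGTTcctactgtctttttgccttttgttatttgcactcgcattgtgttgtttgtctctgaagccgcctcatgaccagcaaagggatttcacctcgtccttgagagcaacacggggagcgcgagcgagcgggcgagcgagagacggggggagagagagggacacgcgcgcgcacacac

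SOX4, chr6:21593501-21593750, plus strand: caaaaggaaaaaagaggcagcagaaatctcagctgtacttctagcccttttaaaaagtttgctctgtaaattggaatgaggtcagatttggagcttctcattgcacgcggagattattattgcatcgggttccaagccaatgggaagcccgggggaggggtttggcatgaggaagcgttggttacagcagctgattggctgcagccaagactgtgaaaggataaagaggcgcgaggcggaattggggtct

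SOX2, which fell, held 1 ACAAAG at position -220 from the start. SOX5, which fell, held 1 AACAAT on the opposite strand at position -179, and SOX4, which rose, held no match. Of the members that did not pass the test, SOX6 held 1 TGANTCA, in the form TGATTCA, and SOX13 none. Over 35116 promoters of this length, 8.98% held AACAAT, 13.7% ACAAAG and 6.57% TGANTCA. SOX2 and SOX5 had 68.8% and 65.6% GC and SOX4 48.8%, where the median promoter had 58.0%.

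At the loci of the members, the surrounding genes gave these values. SOX2 lies within the span of the noncoding SOX2-OT on the same strand, so reads of shared exons could be counted for either gene. SOX2-OT had values of 10.9 and 4.95 in PBRT15 cells and 13.5 and 12.7 in PBRT16 cells, against 88.4 and 90.1 in parental cells, and fell in both lines (log2 fold changes -3.43 and -2.68, limma adjusted p = 0.00215 and 0.00436). The nearest protein-coding genes on each side of SOX2, DNAJC19 (722 kb away) and ATP11B (1079 kb away), did not pass the test in either line. At SOX9 the antisense SOX9-AS1 did not pass either (-0.47 and -0.38), nor did SLC39A11, 520 kb away. KCNJ2, a potassium channel gene 1941 kb from SOX9, fell in PBRT16 (-1.90). BCAT1, an enzyme of branched-chain amino acid breakdown that lies 247 kb from SOX5, fell in both lines (-2.09 and -1.10). ETNK1, which lies 839 kb from SOX5, fell in PBRT16 (-1.03). LMF1, which starts 0.452 kb from SOX8, did not pass (-0.32 and 0.13), and neither did CDKAL1, 361 kb from SOX4. ETNK2, which lies 3.32 kb from SOX13, rose in both lines (1.85 and 1.55) where SOX13 did not pass. SOX15 overlaps MPDU1 on the opposite strand, which did not pass, and lies 6.07 kb from CD68, which rose in both lines (1.27 and 1.35). SOX6 overlaps C11orf58 on the opposite strand, which did not pass (-0.11 and 0.02).

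For each tested member the genes with the most similar profile over the 6 libraries were taken, by the distance between centred log2 values among 11022 protein-coding genes with a mean of at least 100. Nearest to SOX9 were HTR7 (distance 0.34) and KIAA1549L (0.37). KIAA1549L had values of 2337 and 1950.4 in PBRT15 cells and 700.1 and 946 in PBRT16 cells, against 7379 and 7455 in parental cells. Its groups stand in the same order as those of SOX9 because it was chosen for a similar profile. Nearest to SOX5 were ALPK1 (0.35) and STXBP6 (0.65), nearest to SOX2 RHOJ (0.41) and PDZD2 (0.48), and nearest to SOX8 AZGP1 (0.97) and RNF125 (1.03). Nearest to SOX4 were ACSF2 (0.15) and CLSTN3 (0.20), nearest to SOX6 TXNDC11 (0.07) and ETFBKMT (0.08), nearest to SOX13 FBXO46 (0.14) and ERCC4 (0.15), and nearest to SOX15 CSRNP2 (0.29) and SPACA6 (0.35). A small distance for SOX6 or SOX13 goes with a flat profile, which many genes share.

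Genes known to depend on SOX9, SOX5 and SOX6 in cartilage were counted from a list of 16, of which 9 were tested. Of these, 5 (ACAN, MIA, COL9A1, COL9A3 and MATN1) passed the filter through the parental libraries alone, so that their lower values in the resistant lines were built into the selection. Of the 4 others, 2 fell and 1 rose in PBRT15 cells and 3 fell and 1 rose in PBRT16 cells, beside 19.5% falling and 21.6% rising over all tested genes in PBRT15 and 19% and 21.1% in PBRT16. The falls were COL9A2 (-2.45 and -4.03) and WWP2 (-1.42 and -1.60) in both lines and COL11A2 in PBRT16 (-1.84). ACAN, the core protein of cartilage proteoglycan, had values of 12.0 and 2.31 in PBRT15 cells and 3.02 and 3.80 in PBRT16 cells, against 6706 and 5648 in parental cells. MIA, a secreted protein of cartilage and melanoma, had values of 6.98 and 38.2 in PBRT15 cells and was listed at 0 in both PBRT16 libraries, against 4005 and 4307 in parental cells. COL9A3, a chain of the fibril-associated type IX collagen, had values of 2.95 and 7.44 in PBRT15 cells and 1.36 and 6.50 in PBRT16 cells, against 1339 and 1416 in parental cells. MATN3, a matrilin of cartilage matrix, went the other way, with 797 and 784 in PBRT15 cells and 808 and 638 in PBRT16 cells, against 109 and 85.3 in parental cells. COL2A1, the defining collagen of cartilage, stayed at 10.03 or less in every library and was not tested.

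Of 13 neural crest transcription factors 12 were tested, FOXD3 through the parental libraries alone. Of the 11 others, 6 rose and 2 fell in PBRT15 cells, beside 21.6% and 19.5% of all tested genes, and 7 rose and 1 fell in PBRT16 cells, beside 21.1% and 19%. MITF, the master regulator of melanocytes, rose most (2.96 and 4.28), beside MSX2 (2.37 and 2.51) and MSX1 (2.35 and 0.78). The other rises in both lines were TFAP2A (2.05 and 1.52), SNAI2 (1.82 and 1.38) and ZEB1 (0.86 and 0.78). FOXD3, a neural crest factor that often accompanies SOX10, had values of 0 and 0.955 in PBRT15 cells and was listed at 0 in both PBRT16 libraries, against 181 and 105 in parental cells. SNAI1 fell in PBRT15 (-1.20), PAX3 fell in PBRT16 (-0.75), and ETS1 fell in PBRT15 (-0.46) and rose in PBRT16 (0.44).

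Of 12 partners of SOX2 and stem cell factors 5 were tested, POU3F2 through the parental libraries alone. Of the 4 others, 2 rose and 1 fell in PBRT15 cells and 2 rose and 2 fell in PBRT16 cells, beside the same shares of all tested genes. POU3F2, a POU factor that binds DNA with SOX2 in neural cells, had values of 4.06 and 0.955 in PBRT15 cells and 2.71 and 2.82 in PBRT16 cells, against 1144 and 833 in parental cells. NES, the intermediate filament nestin, which SOX2 and POU factors activate in neural progenitors, fell in both lines (-2.16 and -2.84), and KLF4 fell in PBRT16 (-0.78). SALL4 (2.99 and 2.26) and PAX6 (3.12 and 3.44) rose, PAX6 at values of 44.02 or less. PAX6 was at 7.55 and 0.349 in parental cells, so it passed the filter through the resistant libraries alone. Its rises were thus built into the selection, and the counts of rises above, which include it, are a description. POU5F1 and NANOG, the partners of SOX2 in pluripotent cells, were at 10.9 or less and 0.585 or less in every library.

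The TCF and LEF factors carry the same kind of HMG box and bind a similar site. All 4 were tested, and 1 rose and 3 fell in each line. Of all tested genes 21.6% rose and 19.5% fell in PBRT15, and 21.1% and 19% in PBRT16. TCF7L1, mostly a repressor, rose in both lines (2.55 and 1.97), and LEF1 (-2.53 and -5.76), TCF7 (-0.86 and -1.35) and TCF7L2 (-1.12 and -1.05) fell in both, with a median of -0.99 and -1.20 over the list, against -0.01 and 0.00 over all tested genes. LEF1 had values of 334 and 336 in PBRT15 cells and 37.9 and 32.2 in PBRT16 cells, against 2068 and 1831 in parental cells, so that its 3 groups stood in the order of SOX5 and SOX9. Of 4 known targets of SOX4 and SOX11, 3 were tested. In PBRT15 2 rose and 0 fell, and in PBRT16 1 rose and 1 fell, beside the same shares of all tested genes. TEAD2, a partner of YAP, rose in both lines (2.00 and 1.48), and the neuronal tubulin TUBB3 rose in PBRT15 (1.16). EZH2, a histone methyltransferase, fell in PBRT16 (-0.92). Of 7 long noncoding RNAs linked to SOX genes, SOX2-OT and SOX9-AS1 were tested.

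**Figure D4:**
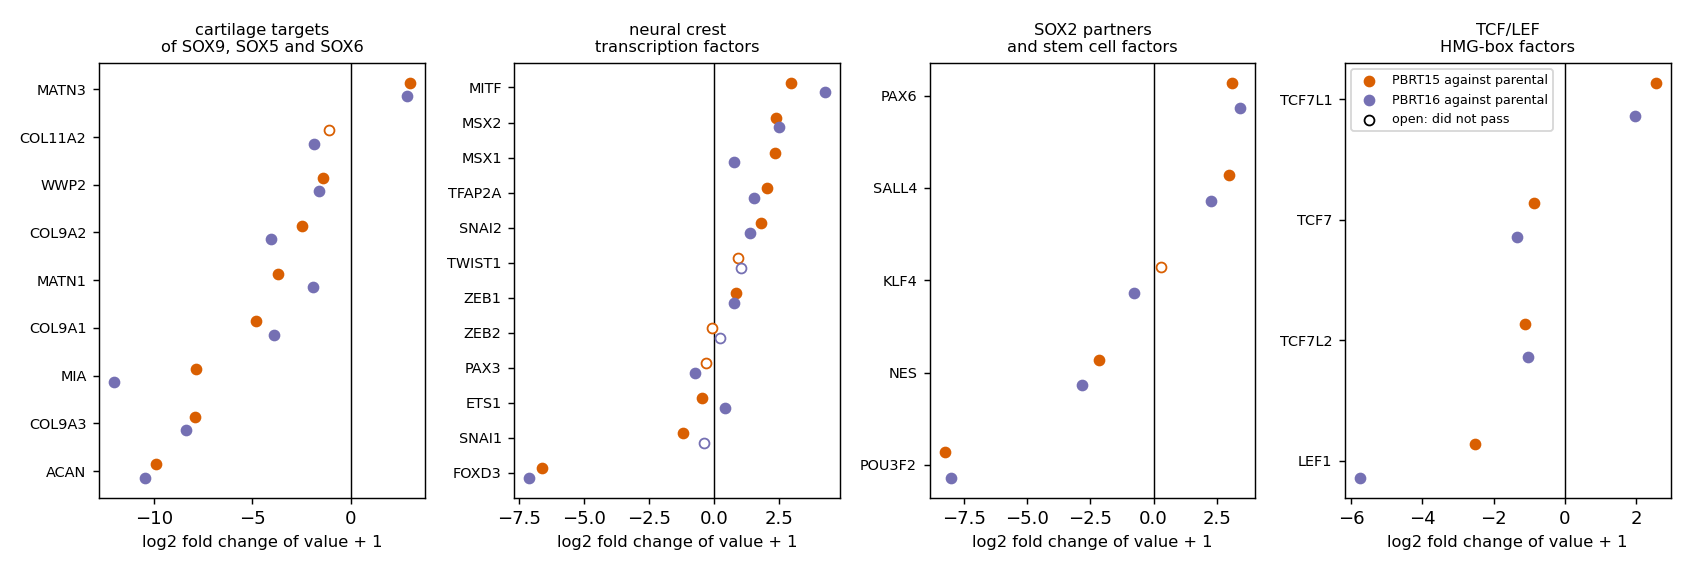
Log2 fold change of value + 1 (x axis) of the tested genes of 4 lists, in PBRT15 against parental (orange) and PBRT16 against parental (violet). Filled points passed an adjusted p of 0.05. Most cartilage targets lie left of 0 with MATN3 at the right. PAX6 passed the filter through the resistant libraries alone. ACAN, MIA, COL9A1, COL9A3, MATN1, FOXD3 and POU3F2 passed the filter through the parental libraries alone, and MIA in PBRT16, FOXD3 in PBRT16 and COL9A1 in PBRT15 are listed at 0, so those points depend on the pseudocount.

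Markers of cell types moved with the groups too. Fibroblast markers summed to 610507 and 633016 in PBRT15 cells and 25737 and 32085 in PBRT16 cells, against 7024 and 6163 in parental cells, and of the 8 tested markers other than THY1, 7 rose in PBRT15, while PBRT16 had 4 rises and 2 falls (PDGFRA and FAP), beside 21.6% of all tested genes rising in PBRT15 and 21.1% rising and 19% falling in PBRT16. COL1A1 was at 60705 and 67057 in PBRT15 cells and at 9942 and 14432 in PBRT16 cells, against 13.9 and 32.7 in parental cells, and COL6A3 at 474129 and 486261 in PBRT15 cells and at 6924 and 6962 in PBRT16 cells, against 68.7 and 117 in parental cells. PDGFRB was at 3023 and 3557 in PBRT15 cells and at 5447 and 6253 in PBRT16 cells, against 161 and 273 in parental cells. THY1, which passed the filter through PBRT15 alone, was at 19573 and 19758 in PBRT15 cells and at 8.14 and 6.84 in PBRT16 cells, against 0 and 4.46 in parental cells, while LUM stayed at 4.12 or less. Markers of melanocytic and neural crest cells summed to 851 and 963 in PBRT15 cells and 2245 and 2223 in PBRT16 cells, against 16809.8 and 13440.5 in parental cells. Nearly all of the sum in the resistant lines was MITF (823 and 927 in PBRT15 cells, 2209 and 2159 in PBRT16 cells, against 109 and 113 in parental cells), which rose, while most of the parental sum was S100B (10992 and 8075) and SOX10. The pigment genes TYR, at 0 in every library, and PMEL, MLANA and DCT, at 29.4 or less, were low in all 3 lines. Chondrocyte markers summed to 51.0 and 70.3 in PBRT15 cells and 31.2 and 47.4 in PBRT16 cells, against 6900.0 and 5811 in parental cells, nearly all of it ACAN. Endothelial markers summed to 251 and 251 in PBRT15 cells, mostly TEK, and to at most 43.3 in any other library. TEK passed the filter through PBRT15 alone, and VWF and KDR through PBRT16 alone, so their differences were built into the selection. Of these 3 tested markers 1 rose and 2 fell in PBRT15, beside 21.6% and 19.5% of all tested genes. Given that selection these calls are a description, and the sum does not stand for all 3 markers. Of the immune markers only CD68 was above 5.17, and of the keratinocyte markers KRT10 made up most of the sum. The part of these cell types in the SOX values was not tested, and in bulk RNA fewer cells of a type cannot be told apart from less RNA per cell.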

How the data were processed

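The members and lists were chosen with earlier results of these data known. RNA-seq libraries (stranded, paired-end) of 2 samples each of PBRT15, PBRT16 and 1205LuTR parental cells were used. Per the study's methods, RSEM and a GENCODE annotation of GRCh38 gave the authors' gene estimates, and the submitters' notes also name STAR 2.6.1a, Picard and DESeq2. Each deposited value is a fractional, normalized signal. How it was scaled is not stated by these sources, which could shift single genes, and leaves the depth in reads unknown. Between 14.4% and 53.4% of values below 20 were whole multiples of the most frequent low value (tolerance 0.02), so reads were not recovered and no count test was run.

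Of 60617 gene IDs, 60357 matched GENCODE v44 once versions were removed; 45 pseudoautosomal IDs were dropped. A gene needed a scaled value of at least 10 in at least 2 libraries and a sum of at least 15. The limma package 3.58.1 of R 4.3.3 was fitted to log2(value + 1) of all libraries, leaving 3 residual degrees of freedom, after a check on simulated data. Named genes were the members, other SOX genes, neighbours, 2 nearest profiles, and up to 3 rises and 3 falls of each list. Alternatives were other scalings, pseudocounts and filters, 4 libraries in the fit, a prior variance that follows expression, a fit with a replicate block and fits without each library in turn.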

Additional observations from a re-analysis of the deposited data

Results flagged for a closer look

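Of 59 tested genes that are members, other SOX genes, list members or neighbours, with no line listed at 0 in both libraries, 15 differed between the 2 resistant lines, by limma's test of PBRT16 against PBRT15 (adjusted p of at most 0.05). That is 25.4%, beside 15.8% of all tested genes, and the genes were not drawn at random. The 59 include genes that passed the filter through 1 group alone, such as SOX8, SOX15 and MATN1, so the share is a description. The changes of these 15 genes from parental cells therefore differ between the lines. Among the members, SOX5 (log2 fold change -1.91, adjusted p = 0.0164) and SOX9 (-1.22, adjusted p = 0.0303) were lower in both PBRT16 libraries than in both PBRT15 libraries.

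LEF1, an HMG-box factor of WNT signaling, differed most (-3.22). CMPK2, an interferon-induced kinase and the nearest expressed neighbour of SOX11, 1139 kb away, came next (-2.73). Its values were 91.7 and 54.7 in PBRT16 cells, against 506 and 445 in PBRT15 cells. Also lower in PBRT16 were KCNJ2 (-1.66), MSX1 (-1.58), KLF4 (-1.09), TUBB3 (-0.92), ETNK1 (-0.83), NES (-0.68) and TCF7L1 (-0.58). Higher in PBRT16 were MATN1 (1.76), MITF (1.32), BCAT1 (0.99) and ETS1 (0.90). MATN1 rests on values of 6.53 or less in the 4 resistant libraries.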

How the results depend on the processing

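SOX2, SOX5 and SOX9 kept their fall in both resistant lines under all 17 alternatives each. Some smaller or less certain changes did not hold, and the cause was not tested. The log2 fold change of SOX13 in PBRT15 turned to -0.0458 with upper-quartile scaling and ran from -0.0419 to 0.11 in the fits without 1 replicate. That of SOX15 in PBRT16 ran from -0.40 to 0.37 there. Between PBRT16 and PBRT15, SOX4 turned to -0.0026 with trimmed-mean scaling and ran from -0.32 to 0.32 without 1 replicate, and SOX2 from -0.38 to 0.0054.

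The count of members that differed between the resistant lines, 2, was 1 with no filter and ran from 0 to 2 without 1 replicate. In these alternatives the count takes in every member, SOX8 and SOX15 included. No fit without 1 replicate called both SOX5 and SOX9, so a count of 2 there includes SOX15. The earlier counts of members between the resistant lines leave SOX15 out. Over all genes this comparison called 2612, against 1390 with no filter, 1344 with 4 libraries in the fit and 769 to 1344 without 1 replicate. PBRT15 against parental called 6796, against 3995 to 5760.0 without 1 replicate, and PBRT16 against parental 6641, against 3861 to 6140.0. These fits assume that a lone library varies like the other groups.

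Deviations of same-numbered libraries correlated at 0.018 to 0.136, so the numbers were not taken to pair samples. With the replicate block 1 member, SOX5, differed between the resistant lines, since SOX9 had an adjusted p of 0.0615, and no other member changed its call.

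Without division by length, SOX9 made up 39.4% of the SOX sum in PBRT15 and 23.8% in PBRT16, against 44.7% in parental cells, and SOX4 23.5% in PBRT16, against 2.09% in parental cells. With the longest transcript as length, SOX4 made up 23.3% in PBRT16, against 1.75% in parental cells, and SOX9 46.2% in parental cells. With that length SOX5 stood above SOX2 in both parental libraries (7.48% and 6.89%, against 5.45% and 5.72%). SOX6 likewise stood above SOX4 there (1.78% and 1.86%, against 1.74% and 1.75%). With 2 libraries a group, low values, such as those of SOX15 and of SOX8 in the resistant lines, carry most uncertainty.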
